A study of Mus musculus with 46 samples.

Results

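The genes of mitosis and cytokinesis described here are 38 genes fixed by name, of the 15285, 19930 and 15695 genes listed in the tables of the WM and LPS experiment, the GLOBAL experiment and the subventricular zone (SVZ) tissue. All 38 were listed in both tables of sorted cells and 36 in the SVZ table, which does not list Bub1 or Ttk. The expression limit, an FPKM of at least 1 in at least 3 libraries of a table, was passed by 36 members in the WM and LPS experiment, 33 in the GLOBAL experiment and 22 in SVZ tissue. FPKM scales the fragments of a gene to the length of its transcript and to the size of the library, so levels of different genes can be set side by side.

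All samples came from male C57BL/6 mice. Sorted CD11b+CD45int cells of whole hemispheres made up the WM and LPS experiment, in which control microglia (n = 3, 5 and 4 libraries at 0, 6 and 24 hr after lipopolysaccharide, LPS) were set beside WM repopulating cells (n = 4 at each time), which had refilled the brain during 28 days of recovery from 14 days of chow with 600 ppm of PLX3397, an inhibitor of the receptor CSF1R that microglia need to survive. LPS, a bacterial cell wall component that sets off innate immune signaling, was injected intraperitoneally at 0.33 mg/kg, the mice of the 0 hr groups received none. The mice of the sorted cells were 2 months old at the start of treatment, before the 28 days of recovery. For the SVZ experiment only the general age of 1.5 months, which holds where no other is given, was found. The GLOBAL experiment compared sorted cells of control mice (n = 4) with GLOBAL repopulation (n = 3), that is 28 days after 7 days of the same chow, and the SVZ experiment compared tissue dissected from the ventricle walls of control mice, of mice at the end of 14 days of PLX3397 and of mice 5 days into recovery (n = 5 each). The sort takes any cell with this surface staining, so other myeloid cells can be among the sorted cells.

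Cells that divide switch on a shared program late in the cell cycle. Cyclin-bound Cdk1 starts mitosis, Aurora and Polo kinases assemble the spindle, kinetochores tie chromosomes to it, the checkpoint holds back the anaphase-promoting complex until all are attached, and the midzone then guides the cleavage of the cell. Microglia of the adult brain rarely divide at rest and renew themselves by division, and repopulation after depletion of microglia depends on it. The transcripts of the program are low outside of G2 and M phase, so that their level in a bulk sample follows the share of cycling cells, and in such samples fewer cycling cells and less RNA per cycling cell cannot be told apart.

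Promoters of this program are known to carry the cell cycle genes homology region (CHR) and CCAAT boxes bound by NF-Y. RefSeq promoter windows of the mouse build GRCm38.p6, from 250 bases before to 50 after the start of a gene, were given for 33 of the 38 members. The CHR letters TTTGAA or TTCGAA, on either strand, were found in 25 of the 33 windows (75.8%) and in 19.4% of the windows of all 27025 genes. CCAAT, on either strand, was found in 25 of 33 (75.8%) against 37.9% of all genes, and both motifs together in 22 (66.7%) against 7.70%; neighboring matches of the motifs can share their end letter. The 120 bases before the start are shown for Top2a, Cdk1 and Cdc20, called members whose windows hold both motifs, and for Kif2c, the member that stood apart in the data. Capitals mark the CHR and CCAAT letters on either strand.
Top2a: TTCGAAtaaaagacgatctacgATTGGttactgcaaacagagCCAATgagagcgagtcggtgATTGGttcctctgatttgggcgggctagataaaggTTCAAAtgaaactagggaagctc
Cdk1: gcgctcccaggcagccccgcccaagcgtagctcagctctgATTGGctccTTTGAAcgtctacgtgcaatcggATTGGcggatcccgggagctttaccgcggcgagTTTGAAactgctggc
Cdc20: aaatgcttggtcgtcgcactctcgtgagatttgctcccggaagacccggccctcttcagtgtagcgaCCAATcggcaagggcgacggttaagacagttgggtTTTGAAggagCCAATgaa
Kif2c: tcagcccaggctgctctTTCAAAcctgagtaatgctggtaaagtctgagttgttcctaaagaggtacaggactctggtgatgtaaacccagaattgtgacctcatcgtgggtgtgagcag
The Top2a bases lie at chr11:99024190-99024309, those of Cdk1 at chr10:69352913-69353032, those of Cdc20 at chr4:118437344-118437463 and those of Kif2c at chr4:117178773-117178892, all on the minus strand. In Cdc20 the CHR letters begin 18 bases before the start, in Top2a 23 and 120 bases, and in Cdk1 15 and 71 bases before it. The Kif2c bases hold no CCAAT and 1 set of CHR letters, 103 bases before the start. In the GENCODE annotation this Kif2c start is an inner one, and the bases shown lie in intron 2 of the longest transcript, whose own start is 3867 bases upstream of this start. Which start the Kif2c reads came from was not tested.

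The sorted cells had a median of 7.06 M reads per library in the WM and LPS experiment (5.24 to 10.4 M), 3.10 M in the GLOBAL experiment (2.21 to 5.37 M), and the SVZ libraries 8.24 M (4.57 to 10.6 M), as recovered from the steps of the low FPKM values. In the deepest and the shallowest library of the WM and LPS experiment, 1 read on a transcript of 2 kb is worth 0.0482 and 0.0955 FPKM. The 10 microglia markers summed to at least 12402 FPKM in each library of the WM and LPS experiment and to at least 16125 in GLOBAL, with P2ry12, Tmem119 and Cx3cr1 among them. Markers of neutrophils were high as well and differed widely within groups: the 9 genes, all listed, summed to between 432 and 15309 FPKM in the WM and LPS experiment and to between 1270 and 22703 in GLOBAL. Control microglia 6 hr replicate 2 and 24 hr replicate 4 correlated least with their groups (median r of 0.939 and 0.949 across genes, against 0.964 or more for the other libraries of that table), and SVZ control replicate 1 held choroid plexus RNA (a sum of 21327 FPKM over 5 listed markers, against 24.7 to 126 in the other 4 control libraries and 15.5 to 44.1 in the PLX3397 and recovery groups). Calls that were lost without one of the first 2, or without another single library, are named with the results.

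In control microglia 21 of the 36 mitosis genes tested rose within 6 hr of LPS and the other 15 did not pass the test. None was called lower at 6 hr against 0 hr, where 21.4% of all 12684 genes tested were called higher and 21.1% lower (limma on log2(FPKM + 1) across all genes, Benjamini-Hochberg adjusted p under 0.05). The median change of the members was 0.90 on the log2 scale, against 0.01 over all genes. The calls fell in 7 of the 8 roles: 4 of 6 among the cyclins, Cdk1 and the Cks subunits, both genes of chromosome structure, 3 of 4 mitotic kinases and passenger proteins, 4 of 7 kinetochore and centromere genes, both partners of the anaphase-promoting complex, 4 of 7 spindle motors and assembly factors, and 2 of 6 midzone and cytokinesis genes. The spindle checkpoint genes Bub1 and Bub1b, the only 2 of that role tested, were not called (0.40 and 0.27). Of the 21 calls, 12 held in each of the 17 alternatives tried. The weakest were Kif23, which held in 8, Mki67 in 9, and Spc24 and Cenpe in 10 each.

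Microglia and monocyte markers moved with the 6 hr result. The microglia markers summed to 26664 to 31089 FPKM at 0 hr and to 12402 to 14130 at 6 hr in control microglia, with 9 of 10 called lower, and 9 of 10 were called lower at 6 hr in WM repopulating cells too. Monocyte markers, 7 of 7 listed, summed to 104 to 399 FPKM at 0 hr over both kinds of cells, to 1259 to 3435 at 6 hr and to 132 to 689 at 24 hr. In control microglia at 6 hr, 3 of 5 border macrophage markers were called lower and 1 higher, and 2 of 9 neutrophil markers were called lower. Oligodendrocyte markers summed to 31.7 to 39.5 FPKM at 0 hr and 19.1 to 29.1 at 6 hr in these cells. Neural progenitor and neuroblast markers summed to 31.9 to 34.5 and 14.9 to 26.0. The part of any of these lists in the result was not tested.

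**Figure D1:**
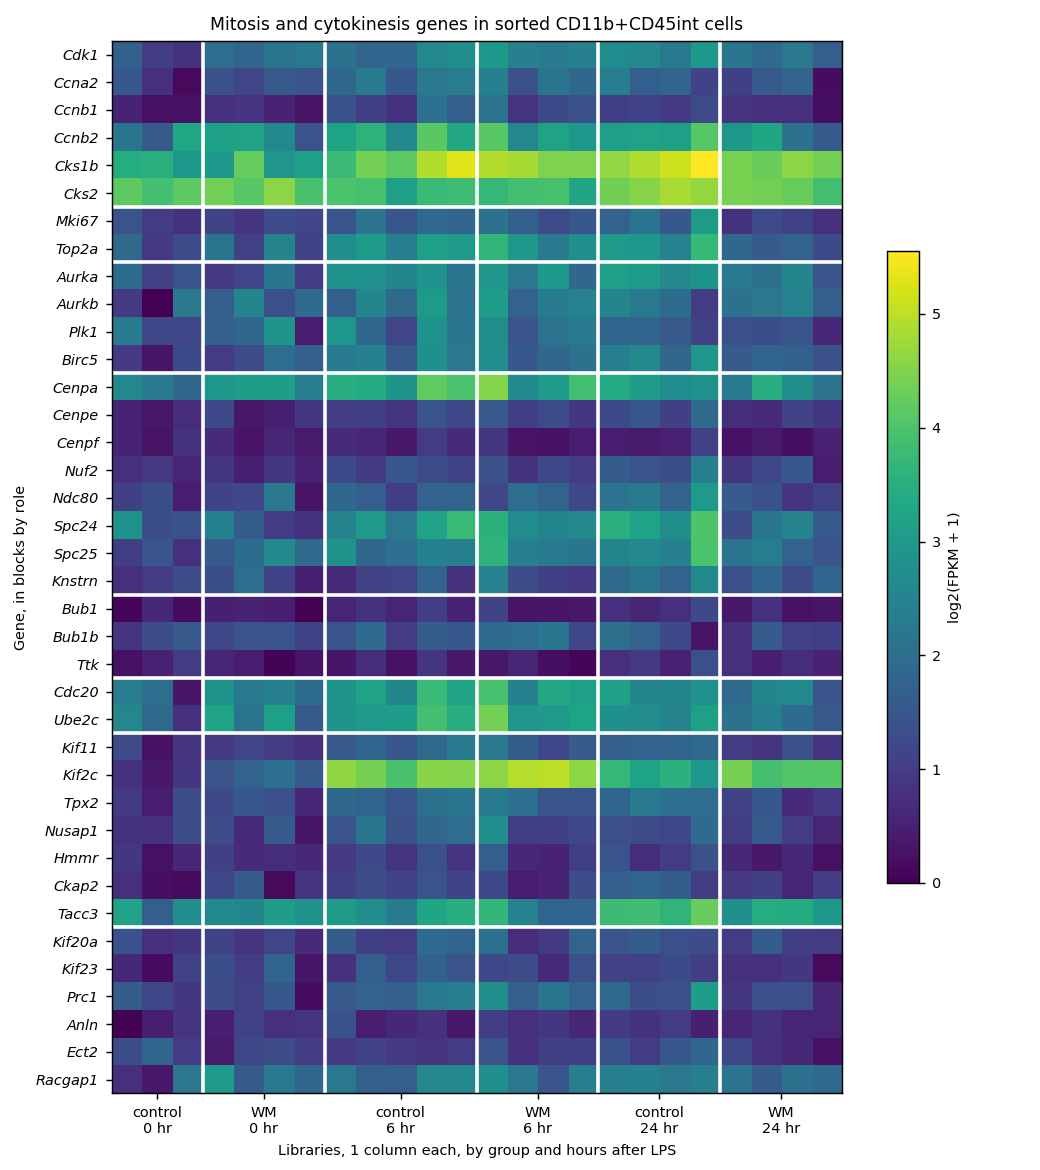
Level of the 38 genes, as log2(FPKM + 1) by color, in the 24 libraries of sorted cells of the WM and LPS experiment, with a column for each library, a row for each gene and white lines between groups and between roles. The Kif2c row is dark in the 7 libraries at 0 hr (0.308 to 3.08 FPKM) and bright at 6 hr (14.6 to 31.1 FPKM).

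Kif2c, a kinesin that takes microtubules apart at the centromere, showed the largest change of the members. Its FPKM was 0.736, 0.308 and 0.825 in the control microglia at 0 hr, or 6 to 15 reads a library. At 6 hr it was 23.8, 20.4, 14.6, 22.5 and 22.4, or 288 to 457 reads, so the groups lay far apart (difference of 3.74 ± 0.20 SE on the log2(FPKM + 1) scale, adjusted p = 2.78e-12 by limma). At 24 hr it had come down to 12, 8.32, 10.6 and 6.48, still above every 0 hr library (2.66 ± 0.21, adjusted p = 6.85e-09) and below every 6 hr library (-1.08 ± 0.18, adjusted p = 9.59e-05). Its 0 hr values rest on few reads, and with a pseudocount of 1 the difference understates the fold change at such levels.

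Top2a, the topoisomerase that untangles chromosomes, stood at 2.77, 0.891 and 1.43 FPKM at 0 hr in control microglia. It was 5.82, 7.26, 4.24, 7.72 and 6.99 at 6 hr (1.49 ± 0.33, adjusted p = 0.000873) and 6.95, 6.58, 4.51 and 12.1 at 24 hr (1.65 ± 0.35, adjusted p = 0.00147), with no overlap with 0 hr at either time. Mki67, which coats mitotic chromosomes, was 1.67, 0.980 and 0.758 at 0 hr and 1.73, 3.31, 1.78, 2.71 and 2.52 at 6 hr (0.68 ± 0.27, adjusted p = 0.0441). The lowest of the 6 hr libraries was only just above the highest at 0 hr, and the Mki67 call at 6 hr was lost without control 0 hr replicate 2 or 3, or control 6 hr replicate 2, 4 or 5. At 24 hr Mki67 rose too (1.03 ± 0.28, adjusted p = 0.00977), a call lost without control 0 hr replicate 3.

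Cdk1, the kinase that starts mitosis, was 2.24, 1.02 and 0.763 FPKM at 0 hr in control microglia. It stood at 3.22, 2.52, 2.51, 4.92 and 5.67 at 6 hr (1.03 ± 0.24, adjusted p = 0.00136) and at 5.5, 5.07, 3.74 and 6.76 at 24 hr (1.45 ± 0.25, adjusted p = 0.000212). Its partner cyclin B1, Ccnb1, rested on few reads: 7, 3 and 3 at 0 hr (0.450, 0.188 and 0.202 FPKM) and 12 to 53 at 6 hr (1.63, 1.08, 0.745, 3.19 and 2.23 FPKM; 1.05 ± 0.26, adjusted p = 0.00232). Ccna2, cyclin A2, rose at 6 hr from a mean of 0.896 ± 0.918 (SD, n = 3) to 3.22 ± 0.93 FPKM (SD, n = 5), with 1 library of 0 hr inside the range of 6 hr, and its call was lost without control 0 hr replicate 3.

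Cks1b and Cks2 are the small subunits that ride on Cdk1. Cks1b rose from 9.06 ± 1.99 FPKM (SD, n = 3) to 23.3 ± 10.1 at 6 hr (n = 5) and 33.1 ± 9.4 at 24 hr (n = 4; 1.74 ± 0.31 SE, adjusted p = 0.000251 by limma). Cks2 was at 16 ± 1.9 (SD, n = 3) at 0 hr and 12.5 ± 2.7 at 6 hr (n = 5), a difference that was not called, and rose from 6 hr to 23.4 ± 3.3 at 24 hr (n = 4; 0.87 ± 0.18 SE, adjusted p = 0.00085 by limma). Both have copies elsewhere in the mouse genome, and how reads shared with those were counted was not tested.

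Among the kinases and passenger proteins, Birc5 (survivin, of the chromosomal passenger complex) was 0.915, 0.255 and 1.37 FPKM at 0 hr in control microglia. It reached 3.85, 4.45, 1.98, 5.88 and 3.58 at 6 hr (1.42 ± 0.30, adjusted p = 0.000445) and 4.29, 5.12, 2.58 and 6.62 at 24 hr (1.61 ± 0.31, adjusted p = 0.000594), above 0 hr in 9 of 9 libraries. Aurka, the spindle pole kinase, rose at both times (1.12 ± 0.30 and 1.41 ± 0.31). Aurkb, the kinase of the passenger complex, was called at 6 hr only (1.19 ± 0.41, adjusted p = 0.0227), and its 0 hr libraries ran from 0.00 to 3.74 FPKM. The Aurkb call was lost without control 0 hr replicate 1 or 2 or control 6 hr replicate 4. Plk1 was called at neither time (0.63 and -0.00).

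The partners of the anaphase-promoting complex had the next largest changes at 6 hr. Its activator Cdc20 was 4.09, 3.01 and 0.262 FPKM at 0 hr, 6.35, 8.16, 4.84, 12.7 and 8.45 at 6 hr (1.56 ± 0.38, adjusted p = 0.00191) and 8.09, 4.79, 4.75 and 5.97 at 24 hr (1.20 ± 0.40, adjusted p = 0.0341). Its ubiquitin-conjugating enzyme Ube2c was 4.95, 2.81 and 0.669 at 0 hr and 6.17, 7.07, 7.57, 13.9 and 10 at 6 hr (1.52 ± 0.39, adjusted p = 0.00325), and at 24 hr it was 5.89, 5.56, 4.55 and 7.92 and not called. The 0 hr groups of both genes spread widely. The Ube2c call at 6 hr was lost without control 0 hr replicate 3, and the Cdc20 call at 24 hr was lost without that library, control 24 hr replicate 1 or control 24 hr replicate 4.

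Of the kinetochore and centromere genes, Cenpa (the histone of the centromere) was 4.90, 3.91 and 2.68 FPKM at 0 hr and 10.3, 9.61, 6.35, 17.4 and 14.9 at 6 hr (1.35 ± 0.36, adjusted p = 0.0037), and fell short of a call at 24 hr (9.45, 7.26, 5.45 and 6.13). Spc24, Spc25 and Cenpe were called at both times, while Ndc80, Nuf2 and Knstrn were called at 24 hr and not at 6 hr. At 6 hr the Spc24 call was lost without control 0 hr replicate 2 or 3 or control 6 hr replicate 2, 4 or 5, and the Cenpe call without control 0 hr replicate 1 or 2 or control 6 hr replicate 4 or 5. At 24 hr the Knstrn call was lost without control 24 hr replicate 4 or control 0 hr replicate 1 or 2, the Spc24 call without control 0 hr replicate 2 or 3, and the Ndc80 call without control 0 hr replicate 3. Spc24, Spc25, Ndc80 and Nuf2 are the 4 subunits of the NDC80 complex, which holds microtubule ends, and at 24 hr all 4 were called higher (0.93 to 1.80). Among the spindle genes, Kif11, Tpx2 and Ckap2 were called at both times and Tacc3 at 24 hr (1.35 ± 0.37). Without control 0 hr replicate 2 the calls of Ckap2 at 6 hr and of Kif11 and Tacc3 at 24 hr were lost, and the Ckap2 call was lost without control 0 hr replicate 3 too. Of the cytokinesis genes, Racgap1, of the centralspindlin complex, was called at both times (1.05 ± 0.36 and 1.24 ± 0.37), its partner Kif23 at 6 hr (0.73 ± 0.28), and Kif20a, Prc1, Anln and Ect2 at neither. The Kif23 call was lost without control 0 hr replicate 1 or 2 or control 6 hr replicate 2, 4 or 5, and both Racgap1 calls without control 0 hr replicate 1 or 2. Cenpf and Ttk missed the expression limit, at 0.168 to 1.09 and 0.0412 to 1.58 FPKM over the 24 libraries.

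At 24 hr against 0 hr in control microglia 19 of 36 members were called higher and 0 lower, where 12.1% of all genes were called higher and 9.23% lower, with a median change of 1.02 (all genes 0.01). Of these calls 11 held in each of the 16 alternatives tried. Of the microglia markers, 8 of 10 were called lower at 24 hr than at 0 hr (13893 to 22052 FPKM in sum). Neutrophil markers summed to 6334 to 15309 FPKM at 24 hr against 1787 to 8718 at 0 hr, with overlap. Of these 9 markers 1 was called higher and 0 lower (median 1.15). Monocyte markers summed to 441 to 563 FPKM at 24 hr against 104 to 337 at 0 hr, with 2 of 7 called higher, and choroid plexus markers to 35.4 to 52.6 against 74.1 to 218, with 0 of 5 called. Astrocyte, neural progenitor and neuroblast, and oligodendrocyte sums were also lower at 24 hr without overlap, with 1 marker of each list called lower. The part of these in the result was not tested. Between 6 and 24 hr, Cks2, Knstrn (1.03 ± 0.30, adjusted p = 0.0129) and Tacc3 (0.92 ± 0.33, adjusted p = 0.0367) rose, where 15% of all genes were called higher, and Kif2c fell, where 13.3% were called lower. Without control 24 hr replicate 4 the count of 4 calls became 2, since Knstrn and Tacc3 lost theirs, and the Tacc3 call was also lost without control 6 hr replicate 1, 2 or 3 or control 24 hr replicate 1 or 2. Between these times 7 of 10 microglia and 6 of 9 neutrophil markers were called higher and 6 of 7 monocyte markers lower. Of 5 border macrophage markers 2 were called higher and 1 lower. Lower calls were also made for 2 of 5 choroid plexus markers (sums of 95.7 to 1359 and 35.4 to 52.6 FPKM at 6 and 24 hr). The same held for 1 of 4 astrocyte markers (sums of 54.1 to 74.0 and 33.8 to 38.9). The part of these lists was not tested. Mki67, Top2a, Cdk1, Ccnb1 and Birc5 were not called between 6 and 24 hr (0.36, 0.16, 0.42, -0.32 and 0.19).

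**Figure D2:**
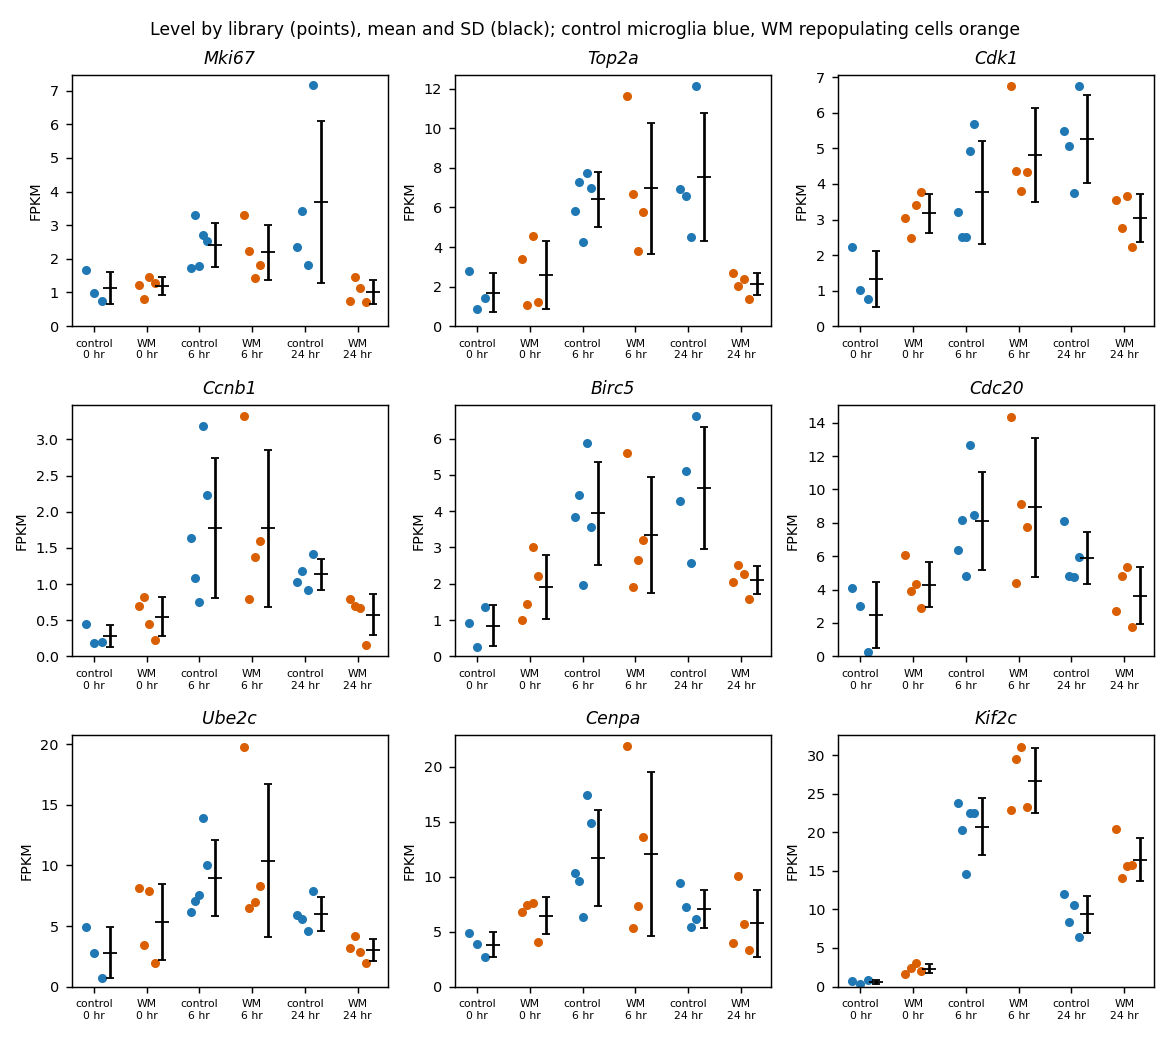
FPKM of 9 genes in each library (points) of control microglia (blue) and WM repopulating cells (orange) at 0, 6 and 24 hr after LPS, with the mean and SD of each group in black. At 24 hr Top2a lay at 4.51 to 12.1 FPKM in control microglia and at 1.38 to 2.70 in WM repopulating cells, while Kif2c lay higher in WM repopulating cells.

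In WM repopulating cells fewer members passed the test. At 6 hr 9 of 36 were called higher, where 19.3% of all genes were called higher, and 1 lower, where 19.5% were called lower, with a median change of 0.53 (all genes -0.00). Kif2c rose from 1.68, 2.40, 3.08 and 2.04 FPKM to 22.9, 29.5, 31.1 and 23.3 (3.07 ± 0.19, adjusted p = 5.19e-11), with no overlap. Cks1b (1.36 ± 0.28), Spc24 (1.38 ± 0.40), Top2a (1.20 ± 0.32), Aurka (1.15 ± 0.29), the midzone bundler Prc1 (1.06 ± 0.34), Ccnb1 (0.78 ± 0.25), Kif11 (0.69 ± 0.23) and Tpx2 (0.62 ± 0.24) rose as well, and Cks2 fell (-0.55 ± 0.19, adjusted p = 0.0237).

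The 6 hr libraries of WM repopulating cells were uneven. Replicate 1 was the highest of the 4 for 29 of the 36 members, and its members summed to 275 FPKM against 156 to 164 in the other 3 libraries. Top2a was 3.40, 1.09, 4.58 and 1.21 FPKM at 0 hr and 11.6, 6.66, 3.81 and 5.77 at 6 hr. Mki67 was 1.21, 0.817, 1.47 and 1.27 at 0 hr and 3.30, 2.22, 1.42 and 1.82 at 6 hr and was not called. Cdk1 stood at 3.03, 2.49, 3.41 and 3.77 and then at 6.77, 4.37, 3.81 and 4.34, Birc5 at 0.992, 1.44, 3.01 and 2.22 and then at 5.59, 1.90, 2.67 and 3.21, and neither was called. Neutrophil markers summed to 10087 FPKM in replicate 1 and to 432 to 825 in the others, with 6 of 9 called lower at 6 hr than at 0 hr (median -2.22). Of 8 T, B and NK cell markers 2 were called higher and 3 lower, and of 5 border macrophage markers 1 higher and 2 lower. Oligodendrocyte precursor markers summed to 0.420 to 0.867 FPKM at 0 hr and 2.47 to 4.32 at 6 hr. Neural progenitor and neuroblast markers summed to 17.5 to 23.4 and 9.25 to 14.9. The part of these lists in the result was not tested. Without replicate 1 the count of 10 calls became 6, and the calls of Ccnb1, Kif11, Prc1 and Tpx2 were lost. The Tpx2 call held in 7 of 17 alternatives and was also lost without WM 0 hr replicate 1, 3 or 4 or WM 6 hr replicate 2. Those of Ccnb1 and Prc1 were lost without WM 0 hr replicate 4, and the lower call of Cks2 without WM 0 hr replicate 1 or 3 or WM 6 hr replicate 4.

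At 24 hr 2 of 36 members were called higher in WM repopulating cells against 0 hr, Kif2c (20.4, 14, 15.7 and 15.7 FPKM; 2.41 ± 0.19, adjusted p = 6.47e-09) and Cks1b (20.5 ± 1.9 FPKM, SD, n = 4, against 9.76 ± 5.51; 1.11 ± 0.28 SE, adjusted p = 0.00738 by limma), where 10.5% of all genes were called higher and 8.29% lower. The median change of the members was -0.03 (all genes 0.02). In this comparison 8 of 10 microglia and 4 of 5 choroid plexus markers were called lower and 2 of 7 monocyte markers higher. Of 9 neutrophil markers 1 was called higher and 1 lower, and of 8 T, B and NK cell markers 1 higher and 3 lower. The part of these lists in the result was not tested. Mki67 was 0.755, 1.46, 1.13 and 0.716 FPKM, Top2a 2.70, 2.05, 2.39 and 1.38, Cdk1 3.54, 2.76, 3.65 and 2.23, Ccnb1 0.790, 0.693, 0.673 and 0.156, and Birc5 2.06, 2.5, 2.28 and 1.58, each overlapping with its 0 hr libraries. From 6 to 24 hr 7 members fell, where 7.50% of all genes were called lower: Ube2c (-1.39 ± 0.38), Top2a (-1.28 ± 0.32), Cdc20 (-1.08 ± 0.37), Prc1 (-1.04 ± 0.34), Ccnb1 (-0.76 ± 0.25), Tpx2 (-0.75 ± 0.24) and Kif2c (-0.67 ± 0.19). Of these, Top2a stayed past the threshold in all 17 alternatives tried, Ube2c in 15, Kif2c in 13, Tpx2 in 10, Prc1 in 9, Ccnb1 in 8 and Cdc20 in 6. The 7 lower calls became 2, Top2a and Kif2c, without WM 6 hr replicate 1 or WM 24 hr replicate 4, and a call in the other direction appeared (Tacc3, 1.12, without the first and Cks2, 0.66, without the second). Of the 7, 3 were left without WM 24 hr replicate 1 and 3 without WM 6 hr replicate 3, where Kif11 was newly called lower (-0.80, adjusted p = 0.0266). The Kif2c call was lost without WM 6 hr replicate 2 or 3 or WM 24 hr replicate 2, and the Ccnb1 call without WM 6 hr replicate 1, 3 or 4 or any WM 24 hr library. The Cdc20 call was lost without WM 6 hr replicate 1, 3 or 4 or WM 24 hr replicate 1 or 4, that of Prc1 without WM 6 hr replicate 1 or 3 or WM 24 hr replicate 1, 3 or 4, and that of Tpx2 without WM 6 hr replicate 1 or 2 or WM 24 hr replicate 1, 3 or 4. Choroid plexus markers moved with this step: 4 of 5 tested were called lower at 24 hr than at 6 hr in WM repopulating cells (median -1.42), and the 6 markers summed to 281 to 718 FPKM at 0 hr, 158 to 600 at 6 hr and 10.9 to 32.0 at 24 hr. Of the other lists, 6 of 7 monocyte markers were called lower (median -2.89), and 4 of 10 microglia and 2 of 9 neutrophil markers higher. Their part in the result was not tested.

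**Figure D3:**
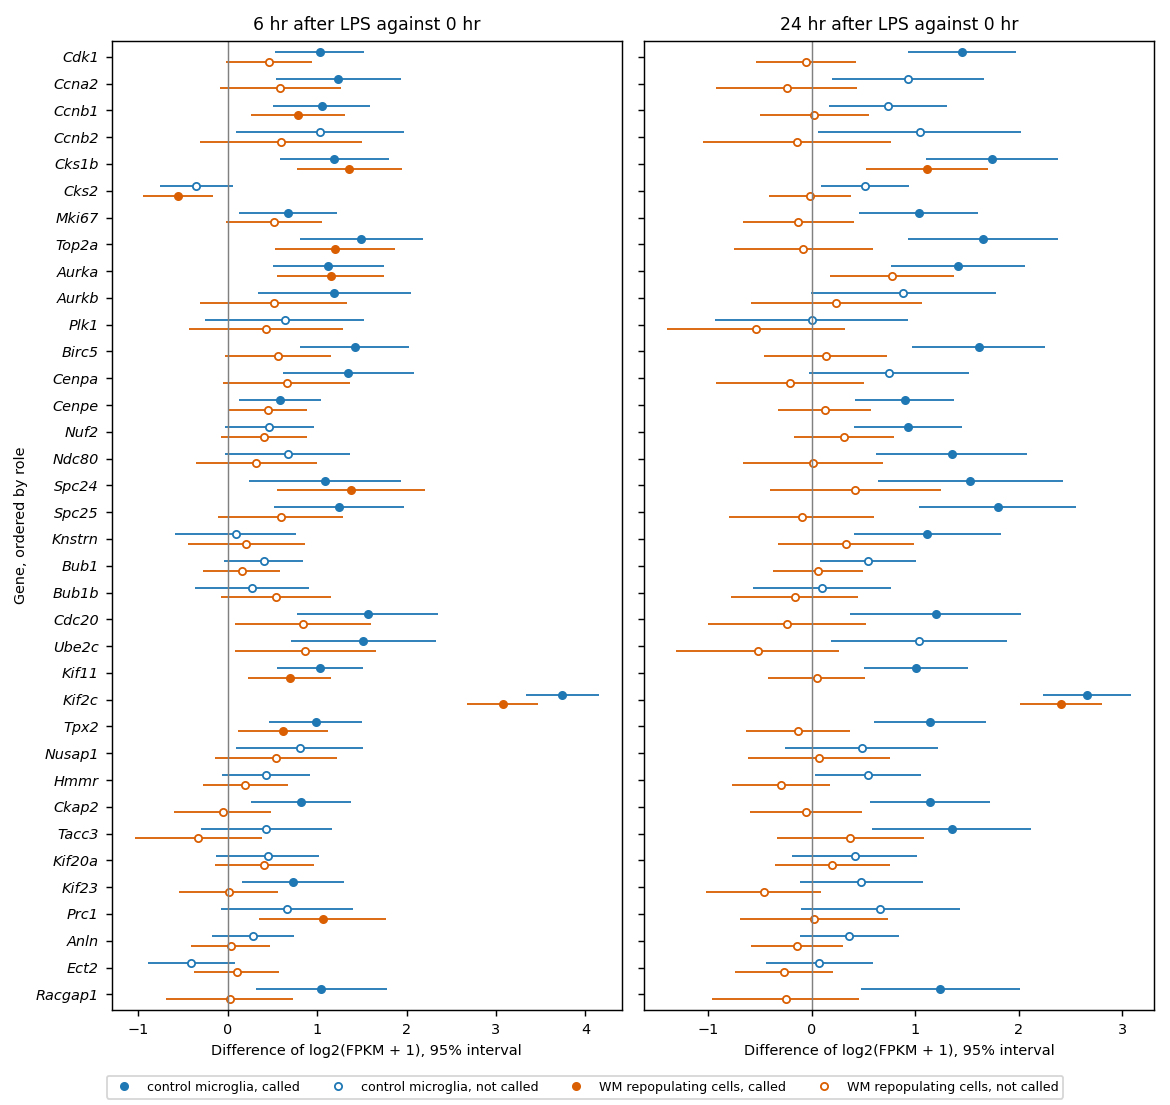
Change after LPS of the 36 members tested, as the difference of log2(FPKM + 1) from 0 hr with its 95% interval, at 6 hr (left) and 24 hr (right), in control microglia (blue) and WM repopulating cells (orange); filled points are called at adjusted p under 0.05. At 24 hr 19 blue and 2 orange points are filled.

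Set side by side at 0 hr, the 2 kinds of cells differed in 1 member of 36. Kif2c was higher in WM repopulating cells than in control microglia (1.02 ± 0.21, adjusted p = 0.0129), at 35 to 68 reads against 6 to 15, where 0.717% of all genes were called higher. That call was lost without control 0 hr replicate 2 (0 calls), and the count became 2 without control 0 hr replicate 1 or 3. Several summed marker lists did not overlap between these groups. In WM repopulating cells the choroid plexus sum was higher (281 to 718 FPKM against 74.1 to 218), as was that of the 2 ependymal markers in the table (1.05 to 3.59 against 0 to 0.138). The sums of endothelial (2.74 to 5.36 against 8.40 to 12.9), neural progenitor and neuroblast (17.5 to 23.4 against 31.9 to 34.5) and oligodendrocyte markers (28.4 to 31.3 against 31.7 to 39.5) were lower, as was that of astrocyte markers, with medians of 38.6 and 55.6. Of these lists' markers, 1 of 2 endothelial markers was called lower and 0 of the others were called, and their part in the result was not tested. Cdk1 (0.88, 95% interval of 0.36 to 1.40, adjusted p = 0.102) was higher in 4 of 4 libraries and not called, and Mki67, Top2a, Ccnb1 and Birc5 were not called (0.05, 0.33, 0.26 and 0.66). At 6 hr 0 of 36 members were called by limma, where 0.323% of all genes were called, and 0 had an unadjusted p under 0.05, against 9.18% of all genes. The differences at 6 hr were 0.04 for Top2a (95% interval of -0.60 to 0.67), -0.11 for Mki67 (-0.61 to 0.40), 0.31 for Cdk1 (-0.14 to 0.77), -0.01 for Ccnb1 (-0.51 to 0.49) and -0.20 for Birc5 (-0.77 to 0.36).

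At 24 hr 4 of 36 members were lower and 1 was higher in WM repopulating cells than in control microglia, and the median difference over all 36 was -0.63 (all genes 0.02). Top2a (-1.40 ± 0.32, adjusted p = 0.0145), Mki67 (-1.11 ± 0.26, adjusted p = 0.0147), Tpx2 (-0.97 ± 0.24, adjusted p = 0.0228) and Spc24 (-1.49 ± 0.40, adjusted p = 0.0342) were called lower, where 2.29% of all genes were called lower. Kif2c alone was called higher (0.77 ± 0.19, adjusted p = 0.0216), where 1.68% of all genes were. In control microglia at 24 hr Mki67 was 2.36, 3.42, 1.82 and 7.15 FPKM and Top2a 6.95, 6.58, 4.51 and 12.1, and for both genes the lowest of these was above the highest of the WM repopulating cells. The highest values were those of control 24 hr replicate 4, the library that correlated least with its group. Without it the count of 5 became 1, and Tpx2 was the one that kept its call. The count was 3 without control 24 hr replicate 2 or WM 24 hr replicate 4, and the Tpx2 call was lost without either of these or WM 24 hr replicate 3. The Kif2c call was lost without control 24 hr replicate 2 or 4 or WM 24 hr replicate 1, and that of Spc24 without replicate 1, 2 or 4 of either group.

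Neutrophil markers moved with this result. They summed to 6334 to 15309 FPKM in control microglia at 24 hr and to 3147 to 7140 in WM repopulating cells, and their part in the result was not tested. Border macrophage markers, 6 of 6 listed, summed to 49.6 to 68.2 FPKM in control microglia and 17.1 to 34.1 in WM repopulating cells at 24 hr, with no overlap and 1 of 5 tested called lower, and choroid plexus markers to 35.4 to 52.6 and 10.9 to 32.0. Endothelial markers, 4 of 6 listed, summed to 7.73 to 12.7 and 1.63 to 7.19 FPKM (1 of 2 tested called lower), and oligodendrocyte precursor markers, 4 of 7 listed, to 0.231 to 0.398 and 0.976 to 1.27 (1 of 1 tested called higher). Replicate 4 of the control group, with the highest member sum (256 FPKM), had the lowest microglia marker sum of its group (13893 FPKM against 20377 to 22052). The part of any of these in the result was not tested.

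**Figure D4:**
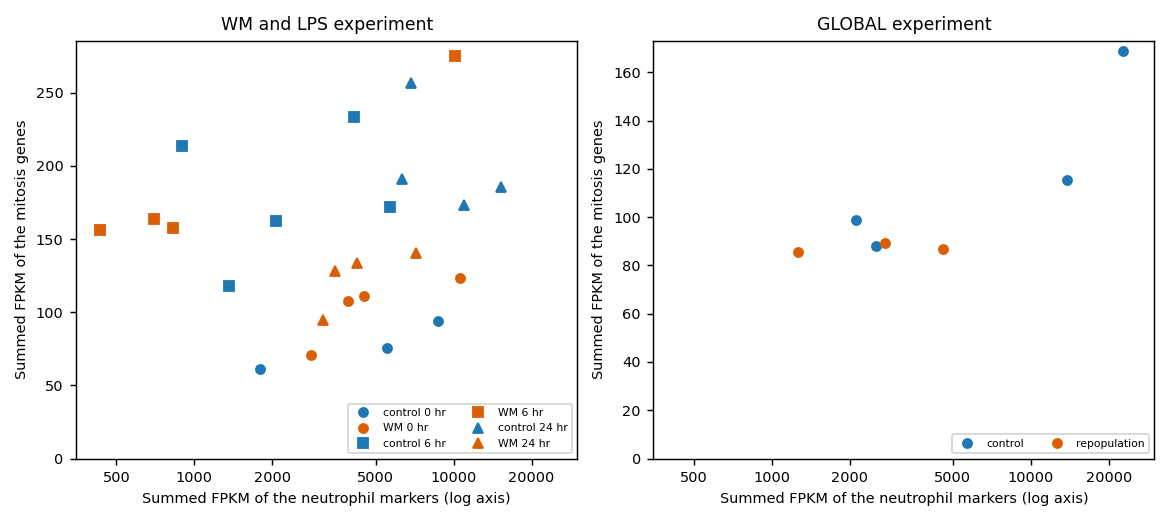
Summed FPKM of the members (vertical axis) against the summed FPKM of the 9 neutrophil markers (horizontal log axis) in each library of the WM and LPS experiment (left) and the GLOBAL experiment (right), with control mice in blue, repopulating cells in orange and the hours after LPS by shape. The libraries with the highest member sums are WM 6 hr replicate 1 (275 FPKM) on the left and GLOBAL control replicate 1 (169 FPKM) on the right.

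The difference between the responses of the 2 kinds of cells was tested as an interaction. At 6 hr 0 of 36 members were called by limma, where 0.0237% of all genes were called, and 4 had an unadjusted p under 0.05, as did 7.20% of all genes. At 24 hr 0 of 36 were called, where 0.0867% of all genes were called, and 16 had an unadjusted p under 0.05, as did 8.71% of all genes. All 36 estimates at 24 hr were below 0, that is the change from 0 hr was lower in WM repopulating cells than in control microglia, with a median of -0.89 (all genes 0.01). The lowest adjusted p was that of Cdk1 (-1.50, 95% interval of -2.21 to -0.79, adjusted p = 0.0763), followed by Spc25 (-1.89, adjusted p = 0.158), Top2a (-1.73, adjusted p = 0.195), Tpx2 (-1.27, adjusted p = 0.208) and Birc5 (-1.48, adjusted p = 0.209). Mki67 was at -1.16 (adjusted p = 0.297) and Ccnb1 at -0.71 (adjusted p = 0.613). The calls at 24 hr in control microglia and not in WM repopulating cells are therefore not shown to differ between them for any single member.

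Other genes of the cell cycle, in lists that hold none of the members, were counted in the same fits, and their shares can be read against those of all genes given with each comparison. Of 80 other mitosis genes tested, 14 were called higher and 6 lower at 6 hr in control microglia, where 21.4% and 21.1% of all genes were, and 40 higher and 2 lower at 24 hr, where 12.1% and 9.23% were. In WM repopulating cells the counts were 11 and 10 at 6 hr, and 7 and 3 at 24 hr. Of 44 genes of DNA replication and S phase tested, 2 were called higher and 10 lower at 6 hr in control microglia (median -0.05), and 39 higher and 0 lower at 24 hr (median 1.33). In WM repopulating cells 8 of 44 were called higher at 24 hr and 0 lower, and against control microglia at that time 29 were called lower and 0 higher. Of the 80 other mitosis genes, 13 were called lower and 0 higher in that comparison. In the interaction at 24 hr, 2 of these 80 and 2 of the 44 were called lower and 0 higher, where 0.0867% of all genes were called. Of 27 genes of G1 (cyclins, CDKs, CDK inhibitors and E2F, Rb and Myc family genes), 10 were called higher and 2 lower at 24 hr in control microglia, and 3 and 1 in WM repopulating cells.

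GLOBAL repopulation was compared with control without LPS. Of 33 members tested 0 were called by limma, where 0% of all 16651 genes were, and 7 had an unadjusted p under 0.05, all of them lower in GLOBAL repopulation, against 9.03% of all genes. The median difference was -0.39 (all genes 0.01), with 30 of 33 members below 0. Among the members below 0 and not called by limma were Aurkb (-0.96, 95% interval of -1.47 to -0.44, adjusted p = 0.294), Top2a (-0.84, adjusted p = 0.469), Mki67 (-0.49, adjusted p = 0.549) and Ndc80 (-0.48, adjusted p = 0.547). Top2a was 3.45, 2.61, 1.38 and 1.14 FPKM in control and 0.354, 1.07 and 0.680 in GLOBAL repopulation, or 19 to 61 reads against 5 to 30. Mki67 was 2.90, 3.06, 2.15 and 1.70 against 1.69, 1.40 and 1.18, and in both genes the lowest control library lay close to the highest library of GLOBAL repopulation. Birc5 was 2.93, 2.12, 1.0 and 1.15 against 0.864, 1.42 and 0.944 (-0.39, adjusted p = 0.681), Ccnb1 2.67, 1.76, 0.984 and 1.42 against 2.07, 1.77 and 0.557 (-0.16, adjusted p = 0.891) and Cdk1 5.15, 2.69, 2.26 and 2.59 against 3.48, 3.45 and 2.71 (0.06, adjusted p = 0.961), all with overlap. Kif2c, the member that stood apart after LPS, lay at 0.800 to 3.13 FPKM over these 7 libraries.

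The control libraries of the GLOBAL experiment were uneven. Replicate 1 was the highest control library for 23 of 33 members, with a member sum of 169 FPKM, replicate 2 came next with 115, and the other 2 control libraries (88.0 and 99.0) were near the range of GLOBAL repopulation (85.7 to 89.1). Neutrophil markers summed to 22703 and 13812 FPKM in those 2 libraries, to 2520 and 2112 in the other 2, and to 1270 to 4587 in GLOBAL repopulation. Their part in the result was not tested, nor was that of T, B and NK cell markers, 10 of 10 listed, which summed to 42.1 to 64.1 FPKM in control and to 23.5 to 29.4 in GLOBAL repopulation. Cenpe, Cenpf, Nusap1, Nuf2 and Ckap2 missed the limit in this experiment, all at 1.75 FPKM or less in each library.

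In SVZ tissue, where neural precursors divide through life, 0 of the mitosis genes tested passed the test at any step of depletion and recovery. At 14 days of PLX3397 against control 0 of 22 members were called by limma, where 1.26% of all 14151 genes were called, and 1 had an unadjusted p under 0.05, against 6.12% of all genes. At 5 days of recovery 0 of 22 were called against control by limma, where 1.27% of all genes were called, and 0 had an unadjusted p under 0.05, against 16.6% of all genes. Against 14 days of PLX3397 0 were called by limma, where 0.325% of all genes were, and 1 had an unadjusted p under 0.05, against 16.5% of all genes. The median differences were -0.00, -0.04 and -0.07 (all genes 0.01, -0.01 and -0.01). For Top2a the differences from control were -0.03 at 14 days (95% interval of -0.40 to 0.34) and -0.10 at 5 days of recovery (-0.46 to 0.27), and for Cdk1 -0.08 (-0.41 to 0.24) and -0.10 (-0.42 to 0.23). The largest difference was that of Ube2c at 14 days of PLX3397 (0.41, 95% interval of 0.10 to 0.72, adjusted p = 0.455).

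The markers of microglia, 10 of 10 listed, summed to 258 to 360 FPKM in control SVZ tissue, to 13.5 to 17.5 at 14 days of PLX3397 and to 23.6 to 35.4 at 5 days of recovery, so microglial RNA was far lower in both PLX3397 groups than in any control library, while 0 of 22 members were called. The 0 calls cannot show whether repopulating cells divided, since bulk tissue mixes their RNA with that of all other cells. By staining, the paper reports proliferating myeloid cells in the SVZ early in recovery. Markers of neural progenitors and neuroblasts, 12 of 12 listed, summed to 293 to 450, 329 to 395 and 269 to 432 FPKM in control, PLX3397 and recovery tissue. Those of oligodendrocyte precursors, 7 of 7 listed, summed to 125 to 164, 80.1 to 140 and 68.7 to 137. Against control 3 of these 7 were called lower at 14 days of PLX3397 and 1 at 5 days of recovery. Of 4 erythroid markers 3 were called higher at 5 days of recovery than in control. Their part in the result was not tested. The most abundant members were Racgap1 (5.06 to 8.27 FPKM), Anln (4.17 to 8.5), Cks1b (2.89 to 6.95) and Spc24 (3.41 to 6.59). Anln, a scaffold of the contractile ring that is also made by oligodendrocytes, lay at 0.0274 to 1.64 FPKM in the sorted cells of the WM and LPS experiment, a level from a table normalized on its own. Top2a was 0.753 to 2.59 FPKM over the 15 SVZ libraries, Ccnb1 0.321 to 1.18, Cdk1 0.374 to 1.51, Birc5 0.00 to 0.945 and Mki67 0.217 to 0.585. Mki67 and Birc5 missed the expression limit, with 12 other listed members. Without SVZ control replicate 1 the count stayed at 0 in both comparisons with control.

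**Figure D5:**
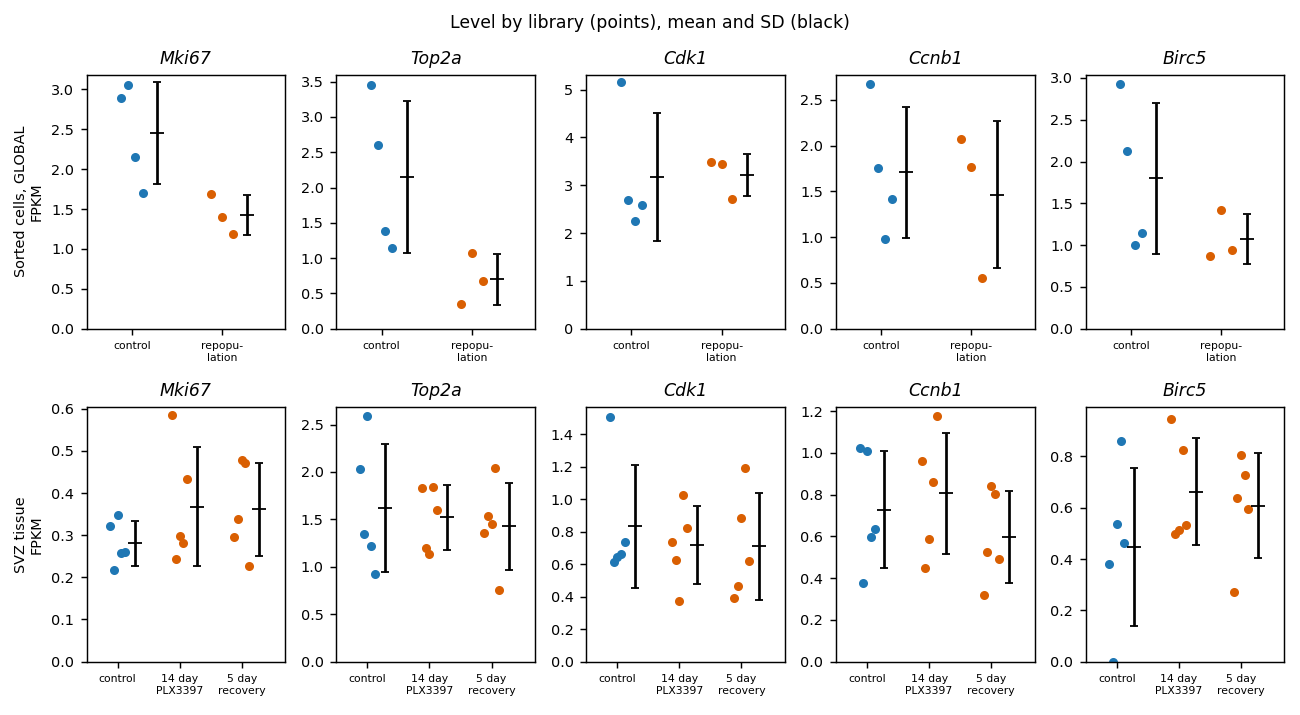
FPKM of Mki67, Top2a, Cdk1, Ccnb1 and Birc5 in each library (points) with the mean and SD of each group in black, in sorted cells of the GLOBAL experiment (top) and in SVZ tissue (bottom), with control in blue and the treated groups in orange. In the top row Top2a lies at 1.14 to 3.45 FPKM in control and at 0.354 to 1.07 in GLOBAL repopulation, and in the bottom row the 3 groups overlap for all 5 genes.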

How the data were processed

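RNA was sequenced in 46 libraries of sorted myeloid cells and SVZ tissue. The authors aligned reads with STAR, counted them per gene with featureCounts and normalized with edgeR and limma, and the submitters' processing notes name the build mm10; the authors deposited FPKM values in 3 tables, normalized separately (the methods call the unit RPKM), and each comparison was made inside 1 table. The library protocol in the labels differs from that of the methods. Columns were matched to samples by their titles, 0 columns were left unused, and 0 pairs of libraries held identical values. Libraries of a group were taken as replicates, and the p-values measure only the spread between them.

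The members and lists were chosen with earlier results of these data known. Genes that reached an FPKM of 1 in 3 or more libraries of a table were fitted with limma 3.58.1 (R 4.3.3) on log2(FPKM + 1), all groups of a table in 1 fit with a trend in the variance; tests are 2-sided with Benjamini-Hochberg adjustment over all genes tested, and a gene was called at an adjusted p under 0.05. A difference on this scale understates the fold change of low genes. Called members were named, at most 20 per comparison by size of change (Cenpe, the smallest of the 21 calls at 6 hr in control microglia, is named beside its 24 hr call), and where fewer than 5 were called Mki67, Top2a, Cdk1, Ccnb1 and Birc5 were given too. Values by library are given for these 5 and for the 6 called members with the largest change in the comparison with most calls (control microglia, 6 hr against 0 hr). The fit was tested on simulated data. Read totals were recovered from the FPKM of low genes, which were whole multiples of the value of 1 read within 0.02 reads for 98.8% of low genes or more in each table; they set the depth and were not used in tests. Reads are not independent molecules, so counts of reads cover counting error only. Alternatives tried were other pseudocounts, expression limits, quantile normalization, no trend, the replicate number as a block, only the groups compared, and leaving out each library.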

Additional observations from a re-analysis of the deposited data

Results flagged for a closer look

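Values of the 9 genes shown by library and of the summed members were searched, in 90 groups of 4 to 10 libraries, for a single library whose gap to the nearest other takes up most of the range of the group; chance alone gives about 1 in 20 groups, and the 4 found are no more than that. WM 6 hr replicate 1 was such a library in the sum of the members (275 FPKM against 156 to 164 in the other 3) and in Ube2c (19.8 FPKM against 6.47 to 8.31). It also held the highest neutrophil marker sum of its group. GLOBAL control replicate 1 stood apart in Cdk1 (5.15 FPKM against 2.26 to 2.69), and it held the highest neutrophil marker sum of that experiment. SVZ control replicate 1, the library with choroid plexus RNA, stood apart in Cdk1 (1.51 FPKM against 0.612 to 0.735), which rested on 20 reads. What sets these libraries apart was not tested.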

How the results depend on the processing

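The number of members called was recomputed 270 times over the 15 comparisons and stayed within 1.5 times of the reported count in 251. It was 0 under every alternative tried in the 7 comparisons that had none. Of 1157 values of called members under an alternative, 1004 were past the threshold in the same direction, 153 were no longer past it and 0 reversed. With a pseudocount of 0.1 the count was 3 for 24 hr against 6 hr in WM repopulating cells and 3 between WM repopulating and control cells at 24 hr. With only the groups compared in the fit it was 0 between WM repopulating and control cells at 0 hr and 3 at 24 hr. Without control 6 hr replicate 2 and 24 hr replicate 4 together, chosen after seeing the data, it was 2 for 24 hr against 6 hr in control microglia, 11 for that step in WM repopulating cells and 3 between WM repopulating and control cells at 24 hr. The cause was not tested.

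Counting both directions, leaving out each replicate gave 2 to 5 members called for 24 hr against 6 hr in control microglia, 6 to 11 for 6 hr against 0 hr and 3 to 6 for 24 hr against 6 hr in WM repopulating cells, and 0 to 2 at 0 hr and 1 to 6 at 24 hr between WM repopulating and control cells. It gave 14 to 23 at 6 hr and 14 to 19 at 24 hr against 0 hr in control microglia.

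Same replicate numbers did not deviate together in every pair (a correlation over 0.1 in 7 of 55, 5 of 15 and 2 of 3 pairs in the WM and LPS, SVZ and GLOBAL tables), and 5 of 23, 6 of 15 and 4 of 6 libraries correlated best with their own number. With the replicate block the count was 16 at 6 hr and 20 at 24 hr against 0 hr in control microglia, 9 and 3 in WM repopulating cells, 6 and 5 for 24 hr against 6 hr, and 1, 0 and 5 between WM repopulating and control cells at 0, 6 and 24 hr. Of the 6 hr calls in control microglia, the block ended those of Cenpe, Kif23, Mki67, Racgap1 and Spc24. At the depth of these libraries, members with under about 10 reads in a group, such as Ccnb1 at 0 hr, have counting error on top of the spread between libraries.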
